A study of Mus musculus with 12 samples.

Results

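The genes described here are 47 mouse genes for enzymes that cut the extracellular matrix, for the inhibitors that hold these enzymes back, and for enzymes and helpers that mature and crosslink collagen. They were chosen by name: 15 matrix metalloproteases (MMPs), 7 ADAM and 10 ADAMTS proteases, 4 tissue inhibitors of metalloproteases (TIMPs), 5 lysyl oxidases, 3 genes of collagen folding and propeptide processing (Serpinh1, Pcolce and Bmp1), and Plat, Plau and Ctsk. The list was made with earlier results of these data known. All 47 were found among the 38293 gene identifiers counted in each of 2 tables of RNA sequencing. The first table held hearts of C57Bl/6J wild-type mice, 3 after sham surgery (WT sham) and 3 taken 14 days after ischaemia–reperfusion (WT IR). The other held hearts taken 14 days after IR from 3 wild-type littermate controls (Zeb2 WT IR) and 3 mice labelled as Zeb2 transgenic (Zeb2 cTg IR). All of these are labelled C57Bl/6J as well. In the cTg mice a Zeb2 transgene in the Rosa26 locus is freed from its stop cassette by a Cre under the cardiomyocyte promoter of Myh6 (αMHC-Cre), so expression was meant to be limited to cardiomyocytes. The mice were 8 to 9 weeks old at the start, and IR was a transient ligation of the left anterior descending artery lasting 1 h. The day of the sham hearts is not given in the labels. The labels name the left ventricle as the tissue, the design text names the infarct with its border zone, and the methods name the remote zone.

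The cardiac matrix is a collagen network made mostly by fibroblasts. Procollagen is folded in the endoplasmic reticulum, trimmed outside the cell by propeptide proteases, and then crosslinked by lysyl oxidases, which stiffens the fibrils. MMPs, ADAM and ADAMTS proteases and lysosomal cathepsins cut collagens, proteoglycans and cell surface proteins, and TIMPs block many of the metalloproteases. After myocardial infarction both sides of this turnover are known to be active while scar replaces lost muscle.

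Each library held between 20215781 and 36816818 counts, of which 5706340 to 11618213 fell outside the mitochondrial genome. Levels are given as TMM-normalised CPM, the counts of a gene in every 1000000 counts of the library, and 1 CPM stood for 17.2 to 37.8 counts. Levels of different genes are compared only as CPM per kilobase of exon. Sums over a class or a marker list given in CPM were not scaled for length, so longer genes weigh more in them. The check of the labels did not show the transgene: Zeb2 stood at 54.7, 57.8 and 67.03 CPM in Zeb2 WT IR and at 55.5, 56.9 and 58.7 CPM in the libraries labelled Zeb2 cTg IR (log2 fold change -0.069, SE 0.12, edgeR adjusted p = 0.750). The latter are called by their label throughout, and a direction given for them is only as sure as that label. With a correction for GC content the Zeb2 difference of the labelled cTg libraries was 0.15. In the WT table Zeb2 was higher after IR (log2 fold change 0.47, SE 0.12, edgeR adjusted p = 0.0219), and with the GC correction it was at 0.29 and did not pass. Replicate 1 of WT sham had more RNA of activated fibroblast markers than the other sham libraries (221 CPM over 12 genes, against 137 and 127 CPM in replicates 2 and 3).

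Of the 47 genes, 45 had enough counts to be tested between WT IR and WT sham. After IR 24 of them were higher and 3 were lower at an adjusted p under 0.05, and 18 did not pass. Among all 13756 genes tested, 11.0% were higher and 9.74% were lower. The 24 came from every class: Lox, which starts collagen crosslinking, had the largest fold change of the 45, followed by Timp1, the collagen-degrading cathepsin Ctsk, Mmp3, Adamts2 and Loxl3. The 3 lower genes were the membrane-type protease Mmp15, Adam19 and Adamts7. The median log2 fold change of the 45 was 0.84, against 0.0064 over all genes tested.

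For 27 of the 45 genes all 3 WT IR libraries lay above all 3 WT sham libraries, and for 3 all lay below. Over all genes tested these shares were 20.5% and 19.3%. The 3 genes that lay apart without passing were Adam8, Adam9 and Adamts8 (edgeR adjusted p = 0.0822, 0.0669 and 0.0508). Within WT IR the libraries followed 1 order in most of these genes: replicate 1 was the lowest in 24 of the 24 genes that were higher, and replicate 3 was the highest in 23 of them. Over all 1519 genes that were higher after IR the same held for 87.0% and 84.5%. Replicate 1 of WT sham was the highest sham library in 19 of the 24, and in 44.9% of the 1519.

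**Figure D1:**
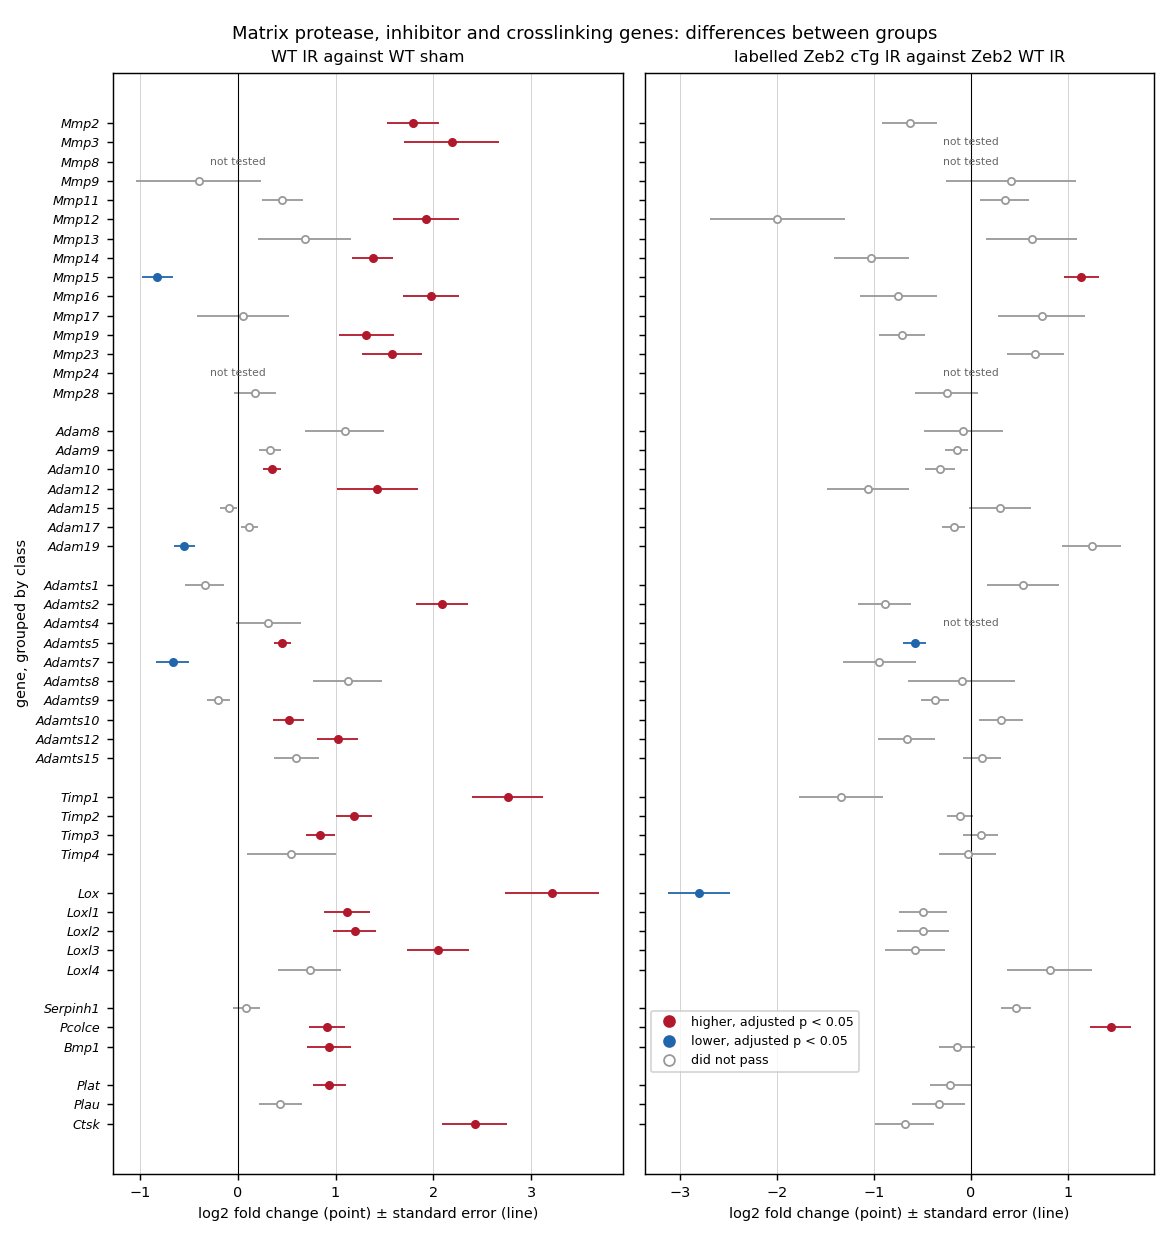
Log2 fold change of each gene (point) with its standard error (line) in WT IR against WT sham (left) and in the libraries labelled Zeb2 cTg IR against Zeb2 WT IR (right), 3 mice a group, genes grouped by class from MMPs at the top to Plat, Plau and Ctsk at the bottom. Filled red and blue points passed an adjusted p of 0.05. On the left 24 genes lie to the right of 0 and pass, with Lox farthest out. On the right 4 genes pass, and Lox lies farthest to the left.

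Of the 27 calls, 9 were kept whichever library was left out: Mmp2, Mmp14, Mmp16, Adamts2, Timp1, Timp2, Lox, Loxl3 and Ctsk. Without WT sham replicate 2 only these 9 genes passed, all higher, and the other 18 had edgeR adjusted p between 0.0553 and 0.153. Without WT sham replicate 1 there were 20 higher and 2 lower, and without WT IR replicate 3 there were 21 higher and 3 lower. Without WT IR replicate 1 the count rose to 31 higher and 4 lower. Adam10, Adam12 and Adamts10 passed in 1 of the 6 fits that leave out a library, the one without WT IR replicate 1. Mmp3 and Adamts7 were also lost without WT sham replicate 1 (all 5 lost there at edgeR adjusted p of 0.0586 to 0.124), and Mmp3, Mmp19, Loxl1 and Bmp1 without WT sham replicate 3 (all 7 lost there at 0.0526 to 0.112). Mmp15, Adamts12 and Bmp1 were also lost without WT IR replicate 2 (all 6 lost there at 0.0505 to 0.118). No called gene changed sign in any of the 6.

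Markers of the cells that make matrix moved with these genes. The summed level of 12 fibroblast markers was 990.0 to 1379.8 CPM in WT sham, and 2261, 3169 and 4778 CPM in replicates 1, 2 and 3 of WT IR, with 10 of the 12 higher. The 12 activated fibroblast markers summed to 127 to 221 CPM and to 493 to 1481 CPM, again lowest in replicate 1 and highest in replicate 3 of WT IR. Of these 12, 11 were higher and Acta2 was lower. The 14 macrophage markers summed to 170.3 to 190.3 CPM and to 249 to 472 CPM, with 10 higher. The 22 cardiomyocyte markers summed to 69687 to 76497 CPM and to 53571 to 69024 CPM, with 7 lower. Neutrophil markers stayed at 1.13 to 4.07 CPM and 1.5 to 2.68 CPM over 10 genes, and the defining Ly6g had no count in any library. The 5 atrial markers summed to 16.5 to 39.4 CPM and 223 to 429.6 CPM. Only 2 of them were tested (Myl4 and Nppa), with 1 higher, and Sln, Myl7 and Bmp10 were too scarce to test. None of the 47 genes is in these lists. The part of cell makeup in the differences was not tested, and in bulk tissue more cells of a type and more RNA per cell cannot be told apart.

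Among the MMPs, 7 of the 13 tested were higher after IR and 1 was lower. Mmp2, the gelatinase that fibroblasts secrete, was the most abundant MMP after IR per length. It stood at 29.96, 21.95 and 25.2 CPM in WT sham and at 52.7, 91.2 and 123 CPM in WT IR (log2 fold change 1.79, SE 0.26, edgeR adjusted p = 0.00430), so the lowest IR library was well above the highest sham library. Mmp14 anchors in the membrane and is known to activate pro-MMP2. Its levels were 6.36, 5.27 and 5.99 CPM and 10.1, 17.5 and 18.1 CPM (log2 fold change 1.38, SE 0.21, edgeR adjusted p = 0.00464). The related membrane-type gene Mmp16 rose from 0.643, 0.552 and 0.524 CPM to 1.72, 2.04 and 3.17 CPM (log2 fold change 1.98, SE 0.29, edgeR adjusted p = 0.00430). Mmp2, Mmp14 and Mmp16 each lay apart between the groups.

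Mmp15 is a further membrane-type MMP and went the other way. Its levels were 46.1, 43.1 and 38.2 CPM in WT sham and 30.7, 22.8 and 18.6 CPM in WT IR (log2 fold change -0.82, SE 0.16, edgeR adjusted p = 0.00955). The call was lost without WT sham replicate 2 and without WT IR replicate 2 (edgeR adjusted p = 0.0595 and 0.0505). Per length, Mmp2 and Mmp15 were level in WT sham at 7.63 ± 1.19 and 7.87 ± 0.736 CPM per kb, and in WT IR they stood at 26.4 ± 10.5 and 4.45 ± 1.14 CPM per kb (SD, n = 3). Both lie on chromosome 8, Mmp2 at chr8:92827291-92853420 and Mmp15 at chr8:95352268-95375080 (GRCm38, plus strand).

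Mmp3 and Mmp12 lie with Mmp8 and Mmp13 in the MMP cluster of chromosome 9, and all 4 were scarce. Mmp3, a stromelysin, held 19, 31 and 8 counts in WT sham and 60, 90 and 167 counts in WT IR, or 0.719, 0.950 and 0.466 against 1.87, 2.38 and 6.23 CPM (log2 fold change 2.19, SE 0.49, edgeR adjusted p = 0.0158). Mmp12, the elastase of macrophages, stood at 0.265, 0.153 and 0.349 CPM and at 0.750, 1.01 and 1.01 CPM (log2 fold change 1.93, SE 0.34, edgeR adjusted p = 0.00745). Fitted with all 12 libraries together, Mmp3 and Mmp12 did not pass (edgeR adjusted p = 0.0730 and 0.0562; for Mmp3 between 6.05e-07 and 0.0730 over the 11 alternatives that keep every library, for Mmp12 between 0.000193 and 0.0562 over the 11 alternatives that keep every library). Mmp13, a collagenase, overlapped between the groups at 0.265, 0.368 and 0.640 CPM and 0.281, 0.741 and 0.932 CPM (edgeR adjusted p = 0.326). Mmp8, the neutrophil collagenase, had at most 4 counts in any library of this table and was not tested.

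The windows of 250 bases before the RefSeq starts of Mmp3, Mmp12 and Mmp13 each hold 1 match to the AP-1 motif TGANTCA (N any base), a motif long known from MMP promoters. They are printed for the last 100 bases before the start (GRCm38.p6, plus strand, chr9:7445722-7445821 for Mmp3, chr9:7347274-7347373 for the downstream of 2 Mmp12 starts and chr9:7272414-7272513 for Mmp13), 5′ to 3′, with the match in capitals. It begins 46, 44 and 35 bases before the start.
Mmp3: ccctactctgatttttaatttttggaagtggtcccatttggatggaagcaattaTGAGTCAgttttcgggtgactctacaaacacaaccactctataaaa
Mmp12: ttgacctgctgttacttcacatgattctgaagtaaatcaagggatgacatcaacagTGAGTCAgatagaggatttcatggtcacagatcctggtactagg
Mmp13: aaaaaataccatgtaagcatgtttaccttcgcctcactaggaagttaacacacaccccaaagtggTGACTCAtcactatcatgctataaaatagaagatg
Of the 31 windows that RefSeq gave for 27 of the 47 genes, 4 held this motif on either strand (12.9%; the fourth belongs to Adam19), against 6.8% of 32817 windows over all genes. The window of Mmp8 held none. Mmp3 and Mmp12 were higher after IR, Mmp13 did not pass and Adam19 was lower, so the genes with a match did not share a direction. A match is a description of the letters and not a bound site.

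Mmp19 and Mmp23 completed the higher MMPs. Mmp19 was at 1.29, 1.01 and 0.931 CPM in WT sham and 1.94, 2.43 and 3.84 CPM in WT IR (log2 fold change 1.31, SE 0.28, edgeR adjusted p = 0.0135). It shares 789 exon bases with Tmem198b on the opposite strand, and whether strand was used in counting is not stated. Mmp23, which lacks the usual haemopexin domain, was at 2.61, 1.69 and 1.57 CPM and 3.87, 5.45 and 8.54 CPM (log2 fold change 1.58, SE 0.30, edgeR adjusted p = 0.00934). The gelatinase Mmp9, known from neutrophils and macrophages of early infarcts, overlapped between the groups at 0.0757, 0.460 and 0.582 CPM and 0.0937, 0.344 and 0.373 CPM (log2 fold change -0.40, SE 0.64, edgeR adjusted p = 0.688). Mmp11, Mmp17 and Mmp28 did not pass either, with log2 fold changes of 0.46, 0.05 and 0.18, and Mmp24 had at most 1 count in any library of this table. As a sum over the 15 genes, MMP RNA was 83.6 ± 7.96 against 149.7 ± 40.3 CPM (SD, n = 3), a ratio of 1.79. Most of this rise was Mmp2, with means of 25.7 and 89.03 CPM, while Mmp15 fell from a mean of 42.5 to 24.02 CPM.

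ADAM proteases are membrane-bound sheddases that cut growth factors, cytokines and adhesion molecules off the cell surface. Their RNA sum was 141 ± 7.21 against 142 ± 12.01 CPM (SD, n = 3), a ratio of 1.01, with 2 of 7 genes higher and 1 lower. Adam12, which is low in most adult tissue, was at 1.06, 0.828 and 0.757 CPM in WT sham and 1.12, 2.27 and 3.92 CPM in WT IR (log2 fold change 1.43, SE 0.42, edgeR adjusted p = 0.0391). It did not pass with limma-voom or with all 12 libraries (adjusted p = 0.0999 and 0.0505; between 0.000238 and 0.0999 over the 12 alternatives that keep every library). Adam10, the main sheddase of Notch and cadherins, was at 27.3, 26.5 and 29.5 CPM and 31, 38.1 and 36.8 CPM (log2 fold change 0.35, SE 0.093, edgeR adjusted p = 0.0285). With a correction for GC content the difference for Adam10 was 0.18 (edgeR adjusted p = 0.135; between 0.00870 and 0.187 over the 12 alternatives that keep every library).

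Adam19, known for a role in heart valve and septum development, was the most abundant ADAM of WT sham per length, at 6.74 ± 0.710 CPM per kb (SD, n = 3). It was lower after IR, at 51.4, 50.2 and 42.1 CPM in WT sham and 31.6, 37.3 and 29.6 CPM in WT IR (log2 fold change -0.55, SE 0.11, edgeR adjusted p = 0.0108). Scaled to 22 cardiomyocyte markers, Adam19 was at a log2 fold change of -0.25 (edgeR adjusted p = 0.171; between 8.82e-05 and 0.184 over the same 12), where the median of all genes was at 0.30. It shares 1067 exon bases with 2 predicted genes of the opposite strand. Adam9, Adam15 and Adam17, the sheddase of TNF, differed by log2 fold changes of 0.33, -0.09 and 0.12, and Adam8, known from leukocytes, by 1.09, without passing.

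ADAMTS proteases are secreted and cut procollagen or proteoglycans such as versican. Of 10 genes, 4 were higher and 1 was lower. Adamts2, the main procollagen N-proteinase, changed most, from 15.5, 11.5 and 11.6 CPM in WT sham to 33.3, 53.6 and 77.7 CPM in WT IR (log2 fold change 2.09, SE 0.27, edgeR adjusted p = 0.00356), a 4.25-fold difference with groups far apart. Among the proteoglycanases, Adamts5 differed little but evenly, at 25.2, 25.7 and 25.1 CPM and 30.9, 35.8 and 37.6 CPM (log2 fold change 0.46, SE 0.086, edgeR adjusted p = 0.00910). Adamts12 was at 3.74, 3.46 and 3.38 CPM and 4.81, 8.36 and 8.39 CPM (log2 fold change 1.02, SE 0.21, edgeR adjusted p = 0.0116). Adamts10, which associates with fibrillin, was at 11.7, 12.02 and 12.3 CPM and 13.8, 15.8 and 22.2 CPM (log2 fold change 0.52, SE 0.16, edgeR adjusted p = 0.0433). It did not pass with limma-voom or with all 12 libraries (adjusted p = 0.0608 and 0.132; between 0.00156 and 0.132 over the 12 alternatives that keep every library).

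Adamts7, which cuts COMP and is known from vascular injury, was lower after IR, at 10.02, 10.03 and 8.67 CPM in WT sham and 6.47, 7.22 and 4.36 CPM in WT IR (log2 fold change -0.66, SE 0.17, edgeR adjusted p = 0.0230). Scaled to cardiomyocyte markers it was at -0.39 (edgeR adjusted p = 0.110; between 0.000363 and 0.176 over the 12 alternatives). Adamts1, which lies next to Adamts5 on chromosome 16 (chr16:85793827-85803113 and chr16:85856173-85901828, minus strand), stood at 3.58 ± 0.605 CPM per kb in WT sham (SD, n = 3), the highest of the class over all exons. With the longest transcript Adamts9 was higher, at 4.50 against 3.89 CPM per kb. The groups of Adamts1 overlapped at 22.5, 18.2 and 16.3 CPM and 20.5, 11.5 and 13.4 CPM (edgeR adjusted p = 0.259), while its neighbour passed. Adamts4, Adamts8, Adamts9 and Adamts15 had log2 fold changes of 0.31, 1.12, -0.20 and 0.60 and did not pass.

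Of the 4 TIMPs, 3 were higher after IR. Timp1, the form known as inducible in injured tissue, was scarce in WT sham at 1.32, 0.736 and 0.698 CPM and reached 3.75, 6.30 and 9.06 CPM in WT IR (log2 fold change 2.76, SE 0.36, edgeR adjusted p = 0.00366), a 6.77-fold difference. Timp2, which also takes part in activating pro-MMP2 with Mmp14, was at 32.5, 27.6 and 29.04 CPM and 48.3, 66.2 and 88.8 CPM (log2 fold change 1.19, SE 0.19, edgeR adjusted p = 0.00512). Timp3 binds to the matrix and also blocks ADAM and ADAMTS proteases. It was at 74.1, 62.5 and 66.3 CPM and 104, 108 and 153 CPM (log2 fold change 0.84, SE 0.15, edgeR adjusted p = 0.00714), and shares 1733 exon bases with Syn3 on the opposite strand.

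The makeup of the TIMP group shifted with these changes. Per length, Timp1 made up 7.63%, 5.09% and 4.62% of TIMP RNA in the 3 WT sham libraries and 13.5%, 18.8% and 19.5% in the 3 WT IR libraries. Timp3 went from 46.5%, 47.1% and 47.8% to 40.9%, 34.9% and 35.9%, and Timp2 kept near its share of WT sham, at 39.7%, 44.98% and 43.6% after IR. Timp4, the form known to be enriched in heart, was at 3.71, 4.02 and 3.78 CPM in WT sham and 10.9, 2.91 and 3.06 CPM in WT IR (edgeR adjusted p = 0.419). Replicate 1 of WT IR lay above all sham libraries, and the other two lay below them. The summed TIMP RNA was 102 ± 8.59 against 201 ± 46.2 CPM (SD, n = 3), a ratio of 1.97. The MMPs had a ratio of 1.79, where Mmp2 gave most of the rise.

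Timp1 lies inside Syn1 on the X chromosome (chrX:20870166-20874735, plus strand). The last 100 bases before its RefSeq start (chrX:20870066-20870165, GRCm38.p6, plus strand) hold 1 match to the core of the hypoxia response element, ACGTG, 82 bases before the start. They are shown because the study concerns a factor that responds to hypoxia, with the match in capitals.
Timp1: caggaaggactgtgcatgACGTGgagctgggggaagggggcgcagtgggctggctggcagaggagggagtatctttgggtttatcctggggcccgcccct
Only ACGTG was searched as the core, and no other form of it. It was found on either strand in 6 of the 31 windows (19.4%), those of Adam10, Mmp14, Serpinh1 and Timp1 and 2 windows of Adam19, and in 16.6% of the 32817 windows of all genes. Where the core is part of the palindrome CACGTG it matches on both strands, as before Adam10.

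**Figure D2:**
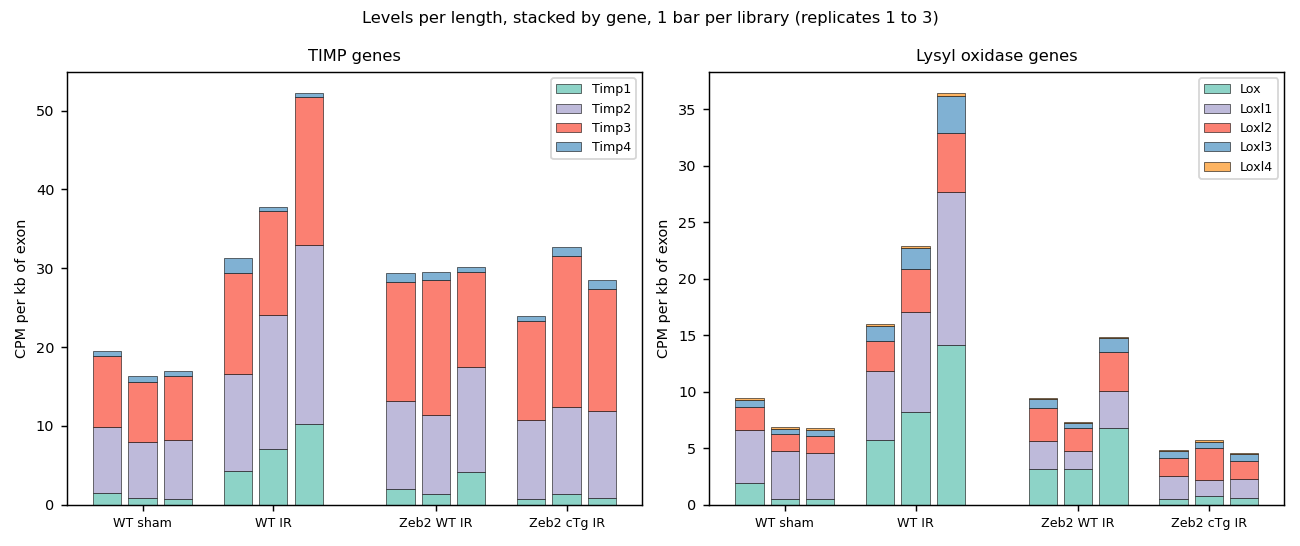
Levels per length (CPM per kb of exon, TMM-normalised) of the TIMP genes (left) and the lysyl oxidase genes (right), stacked by gene with 1 bar per library in replicate order. The lysyl oxidase bars of WT IR all exceed those of WT sham, and Lox fills 35.9% to 38.8% of them. In the libraries labelled Zeb2 cTg IR it fills 10.7% to 13.4%.

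Of the 5 lysyl oxidases, 4 were higher after IR. Lox (chromosome 18, minus strand) was at 9.19, 2.48 and 2.50 CPM in WT sham and 27.4, 39.4 and 67.7 CPM in WT IR (log2 fold change 3.22, SE 0.48, edgeR adjusted p = 0.00456), a 9.29-fold difference. WT sham replicate 1 lay above the other sham libraries, and without it the log2 fold change was 4.16. Loxl3 was at 2.65, 2.12 and 2.39 CPM and 5.97, 8.76 and 14.99 CPM (log2 fold change 2.05, SE 0.31, edgeR adjusted p = 0.00480), and shares 535 exon bases with Htra2 on the opposite strand. The other 2 higher members were Loxl2, which acts on basement membrane collagen, and Loxl1, which acts on elastin.

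Loxl2 was at 11.0, 8.31 and 8.15 CPM in WT sham and 14.6, 20.2 and 28.6 CPM in WT IR (log2 fold change 1.20, SE 0.22, edgeR adjusted p = 0.00897). Loxl1 was at 15.5, 13.9 and 13.5 CPM and 20.1, 29.2 and 44.4 CPM (log2 fold change 1.12, SE 0.24, edgeR adjusted p = 0.0131). Loxl1 was the main lysyl oxidase of WT sham per length, at 50.1%, 61.5% and 60.6% of the family in the 3 libraries, while Lox made up 20.4%, 7.59% and 7.75%. In WT IR both had near the same share, 38.2%, 38.6% and 36.9% for Loxl1 and 35.9%, 35.9% and 38.8% for Lox. Loxl4 was scarce and did not pass (log2 fold change 0.73). The family summed to 31.1 ± 6.89 against 108 ± 44.9 CPM (SD, n = 3), the largest ratio of the 7 classes at 3.47.

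Collagen folding and propeptide processing split. Serpinh1 (HSP47), the chaperone of procollagen, was the most abundant of the 47 genes per length in all 4 groups, at 39.3 ± 2.44 CPM per kb in WT sham and 41.9 ± 9.28 CPM per kb in WT IR (SD, n = 3). Its groups overlapped at 96.8, 102 and 89.8 CPM and 84.6, 94.5 and 128 CPM (log2 fold change 0.089, SE 0.14, edgeR adjusted p = 0.682). Bmp1, the procollagen C-proteinase, was at 13.2, 11.7 and 9.84 CPM and 15.1, 21.4 and 30.6 CPM (log2 fold change 0.94, SE 0.22, edgeR adjusted p = 0.0194). Pcolce, the enhancer of that cleavage, was at 11.4, 10.5 and 9.89 CPM and 14.3, 20.2 and 25.8 CPM (log2 fold change 0.91, SE 0.18, edgeR adjusted p = 0.0111). The fold changes of the enzyme and its enhancer were 1.91 and 1.88.

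The cathepsin Ctsk, a collagenase best known from osteoclasts, was at 1.89, 1.23 and 1.22 CPM in WT sham and 4.91, 7.12 and 11.7 CPM in WT IR (log2 fold change 2.42, SE 0.33, edgeR adjusted p = 0.00391), a 5.37-fold difference that no left-out library removed. Plat, the tissue plasminogen activator, was at 11.1, 9.81 and 10.01 CPM and 15.2, 18.6 and 25.5 CPM (log2 fold change 0.94, SE 0.17, edgeR adjusted p = 0.00797). Plau, the urokinase type, did not pass at 1.82, 2.15 and 1.75 CPM and 1.81, 3.12 and 2.87 CPM (edgeR adjusted p = 0.187).

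**Figure D3:**
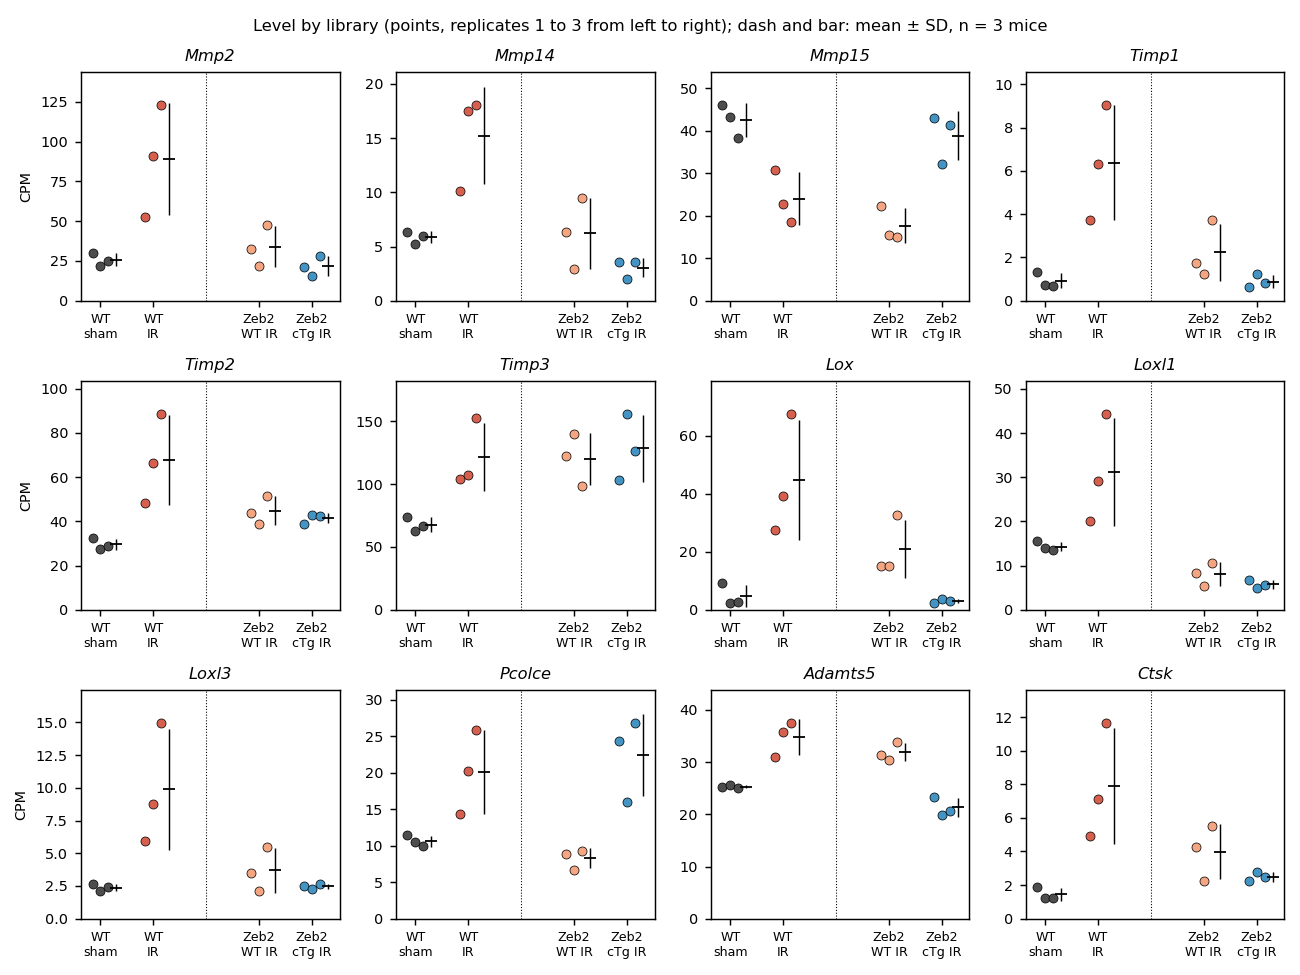
Levels of 12 genes in each library (CPM, linear axis from 0), points in replicate order with the group mean ± SD (dash and bar, n = 3 mice). The dotted line divides the tables, which were normalised separately. Lox is higher in WT IR than in WT sham, and higher in Zeb2 WT IR than in the libraries labelled Zeb2 cTg IR. Mmp15 shows the opposite order in both tables.

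Among 104 related genes, 81 could be tested between WT IR and WT sham, and 36 were higher and 5 lower, with a median log2 fold change of 0.46. Over all genes tested 11.0% were higher and 9.74% lower, with a median of 0.0064. The genes of fibril assembly gave the largest values: 6 of 9 tested were higher, led by Fmod (0.567, 0.491 and 0.233 CPM in WT sham, 5.41, 9.28 and 17.6 CPM in WT IR, log2 fold change 4.53, SE 0.51, edgeR adjusted p = 0.00222), which binds collagen and guides its crosslinking. Sparc, Lum and Fbln5 followed with log2 fold changes of 1.71, 2.30 and 1.69. Lum, Dcn and Fap of these 104 are also in the marker lists of fibroblasts.

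The plasminogen system and its serpins had 7 of 9 tested genes higher and none lower. Among them the serpins Serpina3n, Serpinf1 and Serping1 had log2 fold changes of 2.70, 2.00 and 1.54. Of 12 lysosomal cathepsins and cystatins, 7 were higher, among them Ctss, Ctsz, Ctso and Ctsl (1.34, 0.95, 0.75 and 0.62), and Ctsf was lower (-0.29).

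Collagen hydroxylation and folding genes had 6 of 19 higher. P3h3, Ppib and the telopeptide lysyl hydroxylase Plod2 had log2 fold changes of 1.28, 0.69 and 0.57. P4ha3, a prolyl hydroxylase subunit, had 1 count in the 3 WT sham libraries together and stood at 0.437, 0.820 and 1.38 CPM in WT IR. Of the propeptide proteases and enhancers, Pcolce2 and Tll1 were higher (1.06 and 1.15) and Furin was lower (-0.65). Htra3, Prss23, Fap and the MMP inhibitor Reck were higher among 9 other regulators (0.83, 1.11, 0.78 and 0.78), and the MMP inducer Bsg was lower (-0.36). Of 7 ADAMTS-like genes, Adamtsl1, Adamtsl2 and Adamtsl3 were higher and Adamtsl5 was lower, and of 11 further ADAM and ADAMTS genes Adamts6 was higher and Adam22 lower. None of 8 further MMPs had enough counts to be tested.

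In the Zeb2 table, 43 of the 47 genes could be tested between the labelled cTg libraries and Zeb2 WT IR, and 4 passed. Lox and Adamts5 were lower, and Pcolce and Mmp15 were higher. Of all 13018 genes tested, 2.14% were higher and 1.51% were lower. The median log2 fold change of the 43 genes was -0.18, against 0.0059 over all genes tested. Groups did not overlap for 4 genes that were higher and 9 that were lower, against 13.4% and 12.8% of all genes.

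Lox had the smallest p of the 43 genes. It stood at 15.04, 15.2 and 32.7 CPM in Zeb2 WT IR and 2.47, 3.59 and 2.95 CPM in the libraries labelled Zeb2 cTg IR (log2 fold change -2.80, SE 0.32, edgeR adjusted p = 0.00325), so that the highest labelled cTg library lay far below the lowest control library. Replicate 3 of Zeb2 WT IR lay above the other controls, and without it the log2 fold change was -2.33 (edgeR adjusted p = 0.00390; between 0.00271 and 0.0205 over the 6 fits that leave out a library). Loxl1, Loxl2 and Loxl3 did not pass (log2 fold changes -0.50, -0.49 and -0.58), nor did Loxl4 (0.81). With a correction for GC content Loxl1 was at -1.02 and passed. The share of Lox in the family per length was 33.4%, 43.5% and 46.01% in the 3 Zeb2 WT IR libraries and 10.7%, 13.2% and 13.4% in the 3 labelled cTg libraries. The summed family was at 48.2 ± 17.8 against 22.6 ± 3.49 CPM (SD, n = 3), a ratio of 0.469.

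Pcolce was higher in the labelled cTg libraries, at 8.88, 6.68 and 9.23 CPM in Zeb2 WT IR and 24.3, 16.03 and 26.9 CPM there (log2 fold change 1.44, SE 0.21, edgeR adjusted p = 0.0109), and this call too was kept whichever library was left out. The gene lies at chr5:137605103-137613784 (GRCm38, minus strand) and shares 112 exon bases with Fbxo24 on the same strand. Its partner Bmp1 overlapped between the groups (11.6, 7.77 and 10.8 against 8.84, 7.71 and 10.6 CPM, log2 fold change -0.15). Serpinh1 lay higher in all 3 labelled cTg libraries, at 39.3, 35.5 and 50.4 against 62.8, 50.8 and 58.8 CPM, without passing (log2 fold change 0.46, SE 0.15, edgeR adjusted p = 0.118). With the GC correction Bmp1 was at -0.48 and passed, and Serpinh1 was at 0.13 and did not. With a replicate block, which groups the libraries by replicate number, Serpinh1 passed (edgeR adjusted p = 0.0317).

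Mmp15 was at 22.4, 15.5 and 15.1 CPM in Zeb2 WT IR and 42.9, 32.3 and 41.3 CPM in the labelled cTg libraries (log2 fold change 1.14, SE 0.18, edgeR adjusted p = 0.0142). All 3 labelled cTg libraries lay above all 3 controls. The call was lost without Zeb2 WT IR replicate 3, Zeb2 cTg IR replicate 1 or Zeb2 cTg IR replicate 3 (edgeR adjusted p = 0.0753, 0.0540 and 0.0619; down to 0.00374 over the 6 such fits). With the correction for GC content its log2 fold change was 0.68, and it still passed. Lox and Pcolce stood at -2.63 and 1.17 with the same correction. Across all genes the fold changes of this table followed GC content (Spearman rho 0.55, described over genes, which are not replicates). In WT IR against WT sham the same rho was -0.29. Mmp15 is GC-rich at 59.6% over its longest transcript, beside a median of 53.4% for the 43 genes and 49.3% for all.

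Adamts5 was lower, at 31.4, 30.5 and 33.8 CPM and 23.3, 19.96 and 20.7 CPM (log2 fold change -0.58, SE 0.12, edgeR adjusted p = 0.0330). Its call was lost in 5 of the 6 fits that leave out a library, and kept without Zeb2 cTg IR replicate 2. The adjusted p without Zeb2 WT IR replicates 1, 2 and 3 was 0.0681, 0.0673 and 0.168, and without Zeb2 cTg IR replicates 1 and 3 it was 0.0754 and 0.139 (edgeR). With the GC correction it was at -0.40 (edgeR adjusted p = 0.0844; between 0.00343 and 0.0844 over the 12 alternatives that keep every library). Its exons are AT-rich, with 43.7% GC.

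ZEB2 binds the E-box CAGGTG, so the windows of the 2 genes that were higher are shown whole. The first is that of Mmp15 (chr8:95352046-95352295, plus strand) and the second that of Pcolce (chr5:137611405-137611654, minus strand), both GRCm38.p6 from RefSeq, 5′ to 3′ in the direction of the gene. Capitals mark matches on the other strand, read as CACCTG, which begin 161 and 137 bases before the start of Mmp15 and 238 before that of Pcolce.
Mmp15: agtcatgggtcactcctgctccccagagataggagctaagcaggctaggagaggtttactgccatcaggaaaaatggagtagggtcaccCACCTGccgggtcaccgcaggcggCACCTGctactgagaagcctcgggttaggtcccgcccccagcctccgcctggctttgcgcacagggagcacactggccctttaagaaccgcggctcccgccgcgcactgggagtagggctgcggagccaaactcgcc
Pcolce: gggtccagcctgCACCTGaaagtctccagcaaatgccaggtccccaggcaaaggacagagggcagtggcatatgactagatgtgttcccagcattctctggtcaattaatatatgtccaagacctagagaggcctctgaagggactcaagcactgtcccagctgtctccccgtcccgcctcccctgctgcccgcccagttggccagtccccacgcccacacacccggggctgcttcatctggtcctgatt
On either strand, 6 of the 31 windows held this motif (19.4%), which belong to Adam19, Mmp15, Pcolce, Timp2 and Timp3, against 17.2% of the 32817 windows of all genes. Timp2 and Timp3 differed little between the labelled cTg libraries and controls (log2 fold changes -0.11 and 0.10). Adam19 did not pass (log2 fold change 1.24, edgeR adjusted p = 0.0563). The genes that were lower, Lox and Adamts5, had no window among the 31, so the motif could not be compared between higher and lower genes. Here too a match describes the letters and is not a bound site. Zeb2 RNA was not higher in the labelled cTg libraries, and whether the matches bear on Mmp15 or Pcolce was not tested.

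Of the remaining 39 genes, the one nearest to the threshold was Adam19, at 21.9, 12.02 and 30.02 CPM in Zeb2 WT IR and 38.9, 65.4 and 47.3 CPM in the labelled cTg libraries (log2 fold change 1.24, SE 0.30, edgeR adjusted p = 0.0563). Timp1 was at 1.72, 1.25 and 3.73 CPM and 0.629, 1.22 and 0.814 CPM (log2 fold change -1.34, SE 0.43, edgeR adjusted p = 0.106), with all 3 labelled cTg libraries below the controls and replicate 3 of Zeb2 WT IR far above the other controls. Replicate 2 of Zeb2 WT IR held 31 counts of Timp1 and replicate 2 of the labelled cTg libraries 32, so their separation rests on the scaling. Adamts2 was at 17.7, 11.9 and 26.3 CPM and 7.63, 11.1 and 11.4 CPM (log2 fold change -0.89, SE 0.27, edgeR adjusted p = 0.0955), also without overlap. Adam19 passed with DESeq2, with all 12 libraries together and with no filter on low counts, and Adamts2 and Timp1 passed with DESeq2 and with no filter. With the replicate block Adam19, Serpinh1 and Mmp23 passed as higher, and Mmp2, Mmp12, Mmp14, Adamts2 and Adamts7 as lower. With the GC correction Adamts2, Mmp2 and Adamts7 passed as lower (log2 fold changes -1.08, -0.92 and -1.37). Mmp14 passed as lower with DESeq2 and with no filter, Adamts7 with no filter, and Mmp12 with no filter and with all 12 libraries. Mmp12 had the largest fold change of the genes that did not pass, -1.997, from 0.807, 0.243 and 1.499 and 0.419, 0.0763 and 0.168 CPM.

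Several genes that were clearly higher in WT IR overlapped here. Mmp2 was at 32.2, 21.9 and 47.5 CPM in Zeb2 WT IR and 21.4, 15.8 and 28.3 CPM in the labelled cTg libraries (edgeR adjusted p = 0.210). Ctsk was at 4.25, 2.23 and 5.50 CPM and 2.22, 2.79 and 2.47 CPM, and Timp2 at 43.9, 38.6 and 51.6 CPM and 38.9, 42.98 and 42.5 CPM (edgeR adjusted p = 0.204 and 0.637). Loxl3 was at 3.48, 2.10 and 5.46 CPM and 2.51, 2.25 and 2.67 CPM, and Mmp14 at 6.31, 2.91 and 9.46 CPM and 3.56, 2.02 and 3.59 CPM (edgeR adjusted p = 0.283 and 0.152). In each of these 5 genes replicate 3 was the highest Zeb2 WT IR library. Mmp3 did not reach the count filter, with 22, 5 and 115 counts in Zeb2 WT IR and 2, 4 and 0 counts in the labelled cTg libraries. It passed as lower where the filter was dropped and where all 12 libraries were fitted together (log2 fold changes -4.43 and -4.45). Mmp8, Mmp24 and Adamts4 were too scarce, at up to 11 counts.

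The mean sums of fibroblast and activated fibroblast markers were lower in the labelled cTg libraries, with overlap between the groups. Lox and Adamts5 were lower too, while Pcolce and Mmp15 were higher. The 12 fibroblast markers summed to 1539.6, 1135 and 2118 CPM in replicates 1, 2 and 3 of Zeb2 WT IR and to 819.6 to 1249.7 CPM in the labelled cTg libraries, with 3 lower and none higher. The 12 activated fibroblast markers summed to 186 to 594 CPM and 139 to 195 CPM, with Cthrc1 and Tnc lower and Acta2 higher. The 14 macrophage markers summed to 189.7 to 262 CPM and 197 to 229 CPM, with 1 higher and 1 lower. The 22 cardiomyocyte markers summed to 67794 to 73408 CPM and 75909.8 to 80268 CPM, with 2 higher, and neutrophil markers to 0.733 to 1.38 CPM and 0.796 to 1.45 CPM, with Ly6g and Ngp at 0. The 5 atrial markers, of which 2 were tested, summed to 27.2 to 62.7 CPM and 106 to 283 CPM. Nearly all of this was Nppa, with means of 38.7 and 207.9 CPM, and Sln, Myl7 and Bmp10 were too scarce to test. The 7 skeletal muscle markers summed to 14.97 to 74.5 CPM and 5.74 to 13.03 CPM, and only Acta1 of them was tested. The part of these in the differences was not tested.

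Of the 104 related genes, 80 were tested in this table, with 4 higher and 4 lower, beside 2.14% and 1.51% of all genes. The lower ones were Mme (7.37, 10.8 and 13.6 CPM in Zeb2 WT IR, 1.80, 2.56 and 3.73 CPM in the labelled cTg libraries, log2 fold change -1.95, SE 0.29, edgeR adjusted p = 0.0117), the peptidase neprilysin, and the fibril assembly genes Fmod, Lum and Fbln5 (log2 fold changes -3.62, -1.31 and -0.76). These 3 were also among those higher in WT IR. The higher ones were Adamtsl4, Adamtsl5, the procollagen N-proteinase Adamts3 and the lysosomal protease Ctsd (log2 fold changes 1.42, 0.96, 0.79 and 0.68). No plasminogen gene or serpin and no collagen hydroxylation gene passed.

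Set side by side, the comparisons share no mice and no libraries. Of 23 genes that were higher in WT IR and tested in both tables, 19 had a negative log2 fold change in the labelled cTg libraries (82.6%), which is read beside 75.1% of the 1453 genes of the whole tables that were higher in WT IR. Of the 23, 2 passed as lower (Lox and Adamts5) and 1 as higher (Pcolce). Of the 3 genes that were lower in WT IR, Mmp15 passed as higher in the labelled cTg libraries. Lox thus stood at 4.73 ± 3.87 CPM in WT sham, 44.8 ± 20.7 CPM in WT IR, 20.95 ± 10.1 CPM in Zeb2 WT IR and 3.00 ± 0.560 CPM in the labelled cTg libraries (SD, n = 3). Mmp15 stood at 42.5 ± 3.97, 24.02 ± 6.13, 17.6 ± 4.10 and 38.8 ± 5.74 CPM in the same order, and Pcolce at 10.6 ± 0.767, 20.1 ± 5.75, 8.26 ± 1.38 and 22.4 ± 5.67 CPM. Levels across the tables were normalised separately and were not tested. Over all genes the fold changes followed GC content with opposite signs. Spearman rho was -0.29 in WT IR against WT sham and 0.55 in the Zeb2 comparison, and the part of GC content was not tested.

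**Figure D4:**
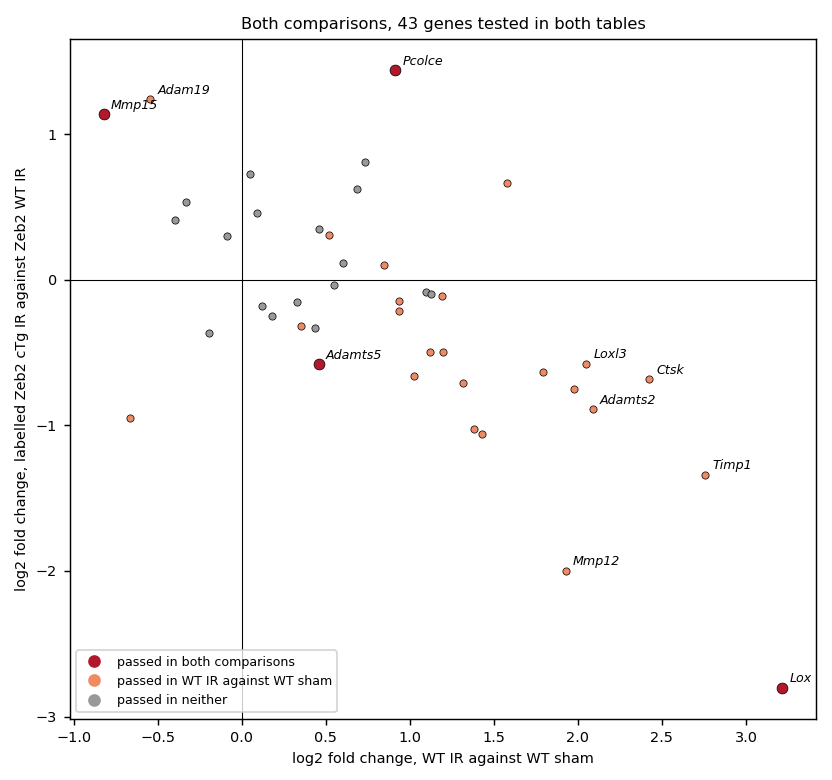
Log2 fold change of the 43 genes tested in both tables, WT IR against WT sham on the x axis and the libraries labelled Zeb2 cTg IR against Zeb2 WT IR on the y axis. Dark red points passed in both comparisons, orange points in the first. Lox lies at the lower right, Mmp15 at the upper left and Pcolce alone among the 4 at the upper right.

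Per length, the order of the 47 genes was led by Serpinh1 in every group. In WT sham Timp3 (8.30 ± 0.727 CPM per kb), Mmp15 (7.87 ± 0.736), Timp2 (7.63 ± 0.637) and Mmp2 (7.63 ± 1.19) followed within each other's SD (n = 3), then Adam19, Adam10, Adam9 and Loxl1. In WT IR the places after Serpinh1 were held by Mmp2 (26.4 ± 10.5), Timp2 (17.4 ± 5.20) and Timp3 (14.9 ± 3.35), whose SDs overlap, and then by Loxl1 and Lox. Lox moved from place 23 in WT sham to place 6 in WT IR, and in the second table from place 8 in Zeb2 WT IR to place 27 in the labelled cTg libraries. With the longest transcript in place of all exons, Timp3 was at 14.3 CPM per kb in WT sham, since its exons sum to 8144 bases and its longest transcript to 4722. At the other end of the order lay Mmp24 and Mmp8, the last places in all 4 groups.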

How the data were processed

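RNA was measured in hearts of 12 mice, 3 in each of 4 groups. Per the labels and methods, the authors aligned single-end reads with STAR (2.4.2a) to mm10 and counted them per gene with HTSeq (0.6.1). The deposited values were raw counts per gene in 2 tables. Whether counting used strand is not stated, and the sources name 2 different TruSeq kits. The lowest library, at 5706340 counts outside the mitochondrial genome, limits genes under a few CPM.

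Counts were analysed within each table with R 4.3.3 and edgeR 4.0.16 (filterByExpr, TMM, quasi-likelihood test, Benjamini-Hochberg adjustment over all genes tested, threshold 0.05). The fit was tested on simulated data. Symbols came from GENCODE M21 (GRCm38), where 36429 of 38293 identifiers matched, and promoters from RefSeq (GRCm38.p6). Alternatives used DESeq2 1.42.0, limma 3.58.1, other scalings, filters, a GC correction, a replicate block and each library left out. Members and lists were chosen with earlier results of these data known. Per-library values were given for each member that passed, and other members by fold changes or counts; of each related list up to 4 genes with the smallest p were named, and Ctsf and Bsg were named after their values were seen. With 3 against 3 libraries an exact permutation test cannot go below p = 0.1. Protein sequences were not analysed here, and 1 related gene that the rule would name is not reported here.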

Additional observations from a re-analysis of the deposited data

How the results depend on the processing

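No called member changed sign under any alternative or left-out library. In WT IR against WT sham, members called higher numbered 24 and lower 3. With size factors from cardiomyocyte markers 1 was lower, where the median of all genes moved to 0.299 and the calls to 2985 higher and 221 lower (members 29 and 1). Fitting all 12 libraries together left 19 higher and 1 lower, with the calls of Mmp3, Mmp12, Adam10, Adam12, Adam19, Adamts7 and Adamts10 lost, and called 1424 genes. A threshold of 0.01 left 15 higher and 1 lower. Related genes called lower (5) numbered 1 with cardiomyocyte factors, 2 with the replicate block, 3 with all 12 libraries and 3 with DESeq2. GC correction split all calls into 1184 higher and 1588 lower (1519 and 1340 without it). Zeb2 fell below the threshold with it, at a log2 fold change of 0.29, and at 0.28 with the block added. With 1 library left out, genes called numbered 421 to 4980, members higher 9 to 31, members lower 0 to 4, related genes higher 12 to 49 and lower 2 to 9, and Zeb2 lay at 0.38 to 0.59. The lowest member counts (9 and 0) came without WT sham replicate 2.

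In the libraries labelled Zeb2 cTg IR against Zeb2 WT IR, 474 genes were called. This became 1553 with no filter, 836 with GC correction, 743 with block and GC, 1813 with the block, 1932 with all 12 libraries and 1095 with DESeq2. Members higher (2) numbered 5 with the block and 0 at a threshold of 0.01. Members lower (2) numbered 8 with no filter, 7 with the block, 6 with GC, 5 with block and GC, 4 with all 12 libraries, 5 with DESeq2 and 1 at 0.01. Cardiomyocyte factors moved the median of all genes to -0.148 and the calls to 171 higher and 534 lower (members 2 and 2). Related genes higher (4) numbered 2 with cardiomyocyte factors, 10 with no filter, 11 with the block, 10 with all 12 libraries and 7 with DESeq2. Related genes lower (4) numbered 8 with cardiomyocyte factors, 10 with no filter, 2 with a minimum of 10 counts, 9 with the block, 9 with DESeq2 and 2 with limma-voom. Zeb2 turned to 0.15 with GC correction and to 0.15 with block and GC, and to 0.019 without Zeb2 WT IR replicate 3. With 1 library left out, genes called numbered 98 to 2419, members higher 1 to 4, members lower 1 to 6, related genes higher 0 to 9 and lower 1 to 8, and Zeb2 lay at -0.13 to 0.019. Members were 1 higher and 1 lower without Zeb2 WT IR replicate 3, Zeb2 cTg IR replicate 1 or replicate 3, 2 and 1 without Zeb2 WT IR replicate 1, and 4 and 6 without Zeb2 cTg IR replicate 2. The causes were not tested.

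The replicate numbers were checked for pairing. In the WT table same-numbered deviations correlated at -0.034, 0.012 and -0.015, and 0 of 6 libraries lay closest to their own number. In the other they correlated at 0.134, 0.260 and -0.042, and 3 of 6 lay closest to their own number. The numbers were taken as names in both, with the replicate block as an alternative only. In the Zeb2 table the block moved the members called from 2 higher and 2 lower to 5 and 7. Whether its numbers mark a shared batch was not tested further.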
